A study of Mus musculus with 14 samples.

Results

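Rag1, Rag2, Dntt, Igll1, Vpreb1, Vpreb2, Vpreb3 and Il7r are 8 genes of early B cell development, here taken by symbol from a table of read counts for 46959 mouse genes. All 8 were found, and all 8 passed the filter on low counts in every fit. They were measured by RNA sequencing in 14 libraries of Eµ-Myc lymphoma cells, from a mouse strain whose Myc transgene is driven by the enhancer of the immunoglobulin heavy chain locus and causes tumours of the B lineage. Among them, 1 library came from a lymph node lymphoma of a wild-type C57BL/6 mouse that carried engrafted cells of line 506 and received the asparagine-degrading enzyme L-asparaginase (ASNase) from day 7 after injection to the disease endpoint. Another came from a mouse that carried the same line and received vehicle, a salt solution, over the same period. The remaining 12 came from untreated cultured lines, named for the Eµ-Myc transgenic mice 115, 136, 309, 504, 505, 506, 517, 524, 549, 649, 688 and 801. They were grown for 24 h in DMEM-GlutaMAX with serum and 0.37 mM added L-asparagine. The labels give the genotype of every library as WT, beside the name of the transgenic mouse. Each line and each treatment had 1 library, so a line stands for the tumour cells of 1 mouse, and the spread between libraries of the same line or treatment was not measured. Both lymphomas derive from 1 line and also hold cells of the host.

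Immunoglobulin genes are assembled from V, D and J segments in developing B cells. The proteins of Rag1 and Rag2 cut the DNA beside these segments, terminal transferase (Dntt) adds bases without a template at the joints, and general enzymes of end joining close them. A heavy chain made before any light chain pairs with a surrogate light chain of VpreB (Vpreb1, Vpreb2) and the product of Igll1, and together they form the pre-B cell receptor. The interleukin 7 receptor, whose alpha chain is Il7r, keeps mouse progenitor and pre-B cells alive and dividing. In normal development the surrogate light chain and Dntt are shut off first, Rag1 and Rag2 stay in use while light chain genes rearrange, and all of these fall silent in mature B cells.

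The ASNase lymphoma held 25690935 counts in all, the vehicle lymphoma 27715832, and each line between 24597230 and 32614751. Levels are given as CPM, counts per 1e+06 of the library total scaled by TMM, and 3 counts correspond to 0.0896 to 0.124 CPM in these libraries. All intervals and floors cover counting error only. The lines were ordered by a B stage score, the mean z-scored log2 CPM of 14 genes of mature B cells minus that of 10 genes of early B cells, none of them among the 8 genes described here. From early to mature the order was line 504, 136, 115, 549, 801, 517, 649, 505, 688, 506, 309 and 524. Line 504, with a score of -1.19, and line 524, with a score of 2.98, stood apart from the other 10, which ran from -0.79 to 0.46. Line 504 was also the one line almost without light chain transcripts, with 1.21 CPM over Igkc, Iglc1, Iglc2 and Iglc3 against 674 to 2657 CPM in the other 11 lines. B-lineage transcripts (pan-B list of 8 genes) summed to 3594 CPM in the ASNase lymphoma and 4630 CPM in the vehicle lymphoma, against 2894 to 3829 CPM in the lines, so every library carried the markers of its label.

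**Figure D1:**
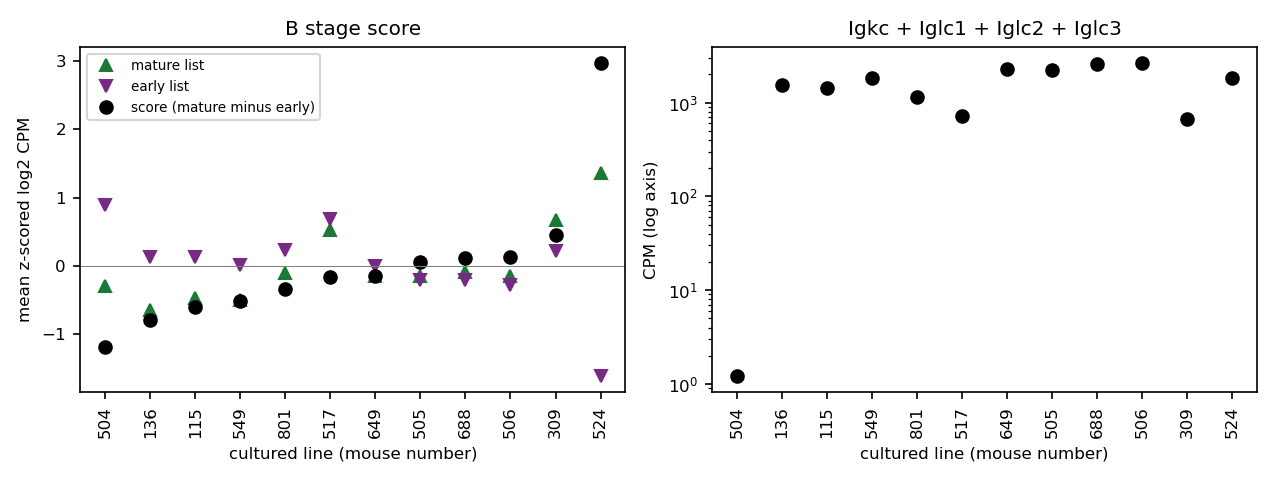
B stage score of the 12 cultured lines with the means of its mature and early gene lists (left, mean z-scored log2 CPM), and summed CPM of 4 light chain constant genes on a log axis (right), lines ordered from early to mature. Lines 504 (score -1.19) and 524 (2.98) lie at the ends, and line 504 has 1.21 CPM of light chain transcripts where the others have 674 CPM or more.

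Rag1 and Rag2, the nuclease pair, were transcribed together in 11 of the 12 lines. Rag1 had a lowest level of 0 CPM in line 524, a median of 38.2 CPM and a highest level of 136 CPM in line 309, followed by 127 CPM in line 801 and 122 CPM in line 504. The weakest of the 11 lines with counts was line 505, with 3.55 CPM, so the level differed widely even among lines that transcribed the gene. Rag2 had 0 CPM in line 524, a median of 6.04 CPM and a highest level of 33.4 CPM in line 504. The same 3 lines, 504, 801 and 309, led for both genes, and the same 4 lines, 688, 506, 505 and 524, closed the order for both. Line 524 had no read of either gene in 29679445 counts. With 3 counts in line 524 taken as the floor, the level of line 505 stood 33.0-fold above that floor for Rag1 and 11.7-fold for Rag2. The counting error of line 505 is not included in these values. In the order of levels, counting error could not separate lines 517 and 115, nor lines 688 and 506, for Rag1, and 4 pairs of neighbours for Rag2.

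Across the 12 lines the log2 CPM of Rag1 and Rag2 followed each other with Pearson's r = 0.98 and Spearman's rho = 0.90. With lines 524 and 505 left out, the pair farthest from the median of Rag1, r was 0.89. Rag2 ranked 1 of 15647 other genes by likeness to Rag1, and Rag1 ranked 1 of 15647 by likeness to Rag2. After each other, the gene most like both was Klhl6 (r = 0.95 with Rag1 and 0.95 with Rag2), among genes with a mean log2 CPM of at least 2. These values describe 12 points, each 1 library of another tumour. Rag1 lies on chromosome 2 at 101638282 to 101649501 on the minus strand, and Rag2 at 101624718 to 101632529 on the plus strand (GRCm38, as the deposited table gives them). The transcribed spans point towards each other and 5752 bases separate them. An annotated gene between them, B230118H07Rik, shares 80 exon bases with Rag1 on the same strand and 208 exon bases with Rag2 on the opposite strand, and the strand setting of the counting is not given in the sources used here.

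Per length, Rag1 exceeded Rag2 in most lines, but by an amount that differed between them. The ratio of CPM per kb of exon, Rag1 over Rag2, had a median of 1.97 over the 11 lines with counts. It was 3.93 in line 115 (95% counting interval 3.34 to 4.64) and 3.91 in line 517 (3.37 to 4.57), and 0.938 in line 649 (0.817 to 1.08). In lines 649, 506, 688 and 505 the interval included 1, so counting error could not separate the RNAs of both subunits per length. That does not show an equal level, as the interval of line 505 reached 2.18. The ratio spanned 4.19 times from line 649 to line 115, more than any of these intervals.

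**Figure D2:**
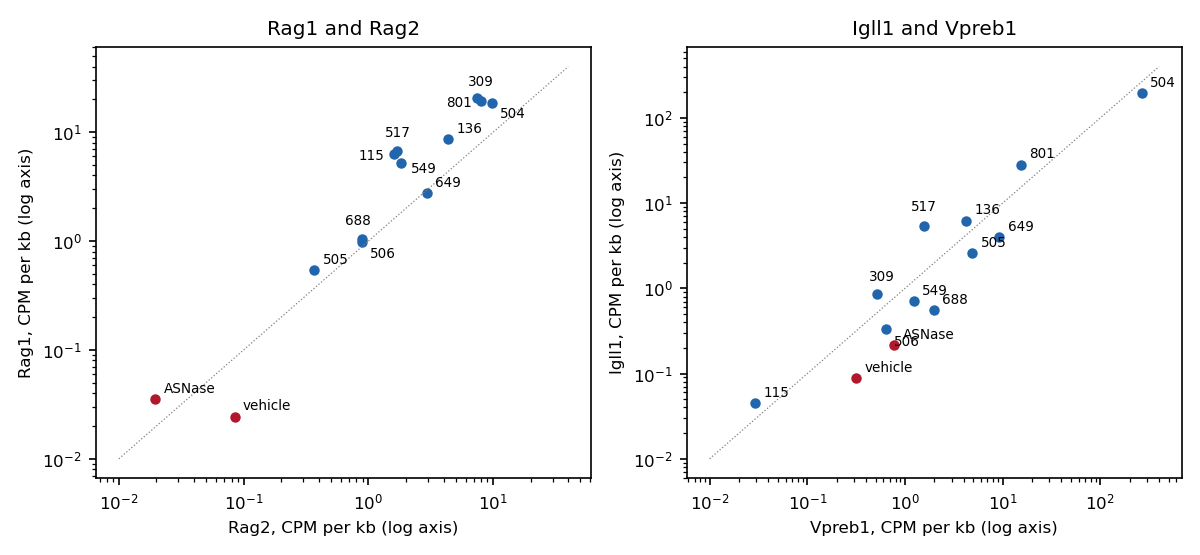
CPM per kb of exon, log axes, of Rag1 against Rag2 (left) and Igll1 against Vpreb1 (right) in the lymphomas (red) and the cultured lines (blue, by mouse number), libraries with at least 1 count of both genes. The dotted line marks equal levels; most lines lie above it for Rag1, between 0.938 and 3.93 times Rag2, while for Igll1 the lines lie on both sides, between 0.280 and 3.49 times Vpreb1 in lines with 10 counts or more of each.

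Dntt, the terminal transferase, was a gene of a single line. Line 504 held 29146 counts, or 1006 CPM, and 99.7% of the summed level of all 12 lines. The line next to it, 549, held 36 counts, or 1.37 CPM, 733 times less (95% counting interval 530 to 1047). Lines 115, 136 and 309 had 19, 13 and 7 counts, and the remaining 7 lines had 0 to 2. Those 7 lines lay at or under the floor of 3 counts and could not be ranked. Per length, Dntt at 473 CPM per kb was the most abundant of the 8 genes in line 504, ahead of Vpreb3 at 393 CPM per kb, Vpreb1 at 268 CPM per kb and Igll1 at 197 CPM per kb. Dntt lies on chromosome 19 at 41029275 to 41059523 on the plus strand.

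The surrogate light chain genes Igll1, Vpreb1 and Vpreb2 had their highest level in line 504, with line 801 second. Igll1 had 0 CPM in line 524, a median of 3.73 CPM and a highest level of 425 CPM in line 504, 6.96 times the 61.1 CPM of line 801 (interval 6.64 to 7.30). Vpreb1 had 0.0327 CPM in line 115, a median of 1.97 CPM and 298 CPM in line 504, 17.4 times the 17.1 CPM of line 801 (interval 16.0 to 19.0). Vpreb2, the second VpreB gene, had 33.1 CPM in line 504 and 0.483 CPM in line 801, with 10 counts in line 136 and 7 in line 649. In the other 8 lines it had 0 to 2 counts, so its order there could not be told. Line 504 held 80.1% of the summed Igll1 level of the lines, 87.1% of Vpreb1 and 96% of Vpreb2. Below lines 504 and 801 Igll1 formed a graded series, with lines 136, 517, 649 and 505 at 5.60 to 13.5 CPM. Lines 309, 549, 688 and 506 followed at 0.713 to 1.86 CPM of Igll1. The order of Vpreb1 differed, as line 517 had 1.73 CPM and line 688 had 2.21 CPM, not apart beyond counting error. Line 115, although among the earliest lines by stage score, was at the floor for Igll1, Vpreb1 and Vpreb2. It had 3 counts of Igll1, 1 of Vpreb1 and 1 of Vpreb2, while its Rag1 level was 41.8 CPM. Neighbours in the order of levels did not differ beyond counting error in 5 pairs of lines for Igll1, 5 for Vpreb1 and 10 for Vpreb2.

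Igll1 and Vpreb1 are neighbours on chromosome 16, both on the minus strand, at 16860671 to 16863985 and 16868402 to 16870843, with 4416 bases between them. Their log2 CPM followed each other with r = 0.95 and rho = 0.85 over the 12 lines (r = 0.89 without lines 504 and 524), and each ranked 1 of 15647 other genes by likeness to the other. Vpreb2 lies 1109721 bases from Vpreb1 on the same chromosome, at 17980565 to 17981080 on the plus strand, and had r = 0.85 with Vpreb1. Without lines 504 and 801 this r was 0.70. Vpreb2 ranked 13 of 15647 by likeness to Vpreb1, and Vpreb1 ranked 229 by likeness to Vpreb2. The ratio of Igll1 to Vpreb1 per length was less fixed than the correlation alone shows. Its median was 0.653 over the 10 lines with 10 counts or more of each, with 3.49 in line 517 (interval 2.64 to 4.67), 0.734 in line 504 (0.714 to 0.754) and 0.280 in line 688 (0.175 to 0.441). Igll1 thus exceeded Vpreb1 per length in lines 136, 517 and 801, and Vpreb1 exceeded Igll1 per length in lines 504, 505, 506, 549, 649 and 688, beyond counting error in each. The order depends on the exon lengths used, 2164 bases for Igll1 and 1113 for Vpreb1, whose error the intervals do not cover. In CPM, without lengths, Igll1 was the higher in line 504, with 425 against 298 CPM, and Vpreb1 in lines 649 and 688. Lines 505, 506 and 549 had nearly the same CPM of both. In line 309 the ratio was 1.65 and its interval, 0.891 to 3.26, included 1. Vpreb1 exceeded Vpreb2 per length 3.48 times in line 504, 5.47 times in line 136 and 13.7 times in line 801.

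The VpreB values share a limit set by sequence. The longest annotated transcripts of Vpreb1 and Vpreb2 are identical at 671 of 686 aligned bases, and 19.9% of all stretches of 75 bases in Vpreb2, the length of 1 read, also occur in Vpreb1. No such stretch is shared with Vpreb3 or Igll1. How reads with several matches were counted is not given in the sources used here, so counts of Vpreb1 and Vpreb2 could be lost or divided, and the split between these genes is uncertain. The gene model of Vpreb2 in the deposited table also differs from the annotation searched here, as it is shorter. Vpreb1 shares 108 exon bases with Top3b on the opposite strand.

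The promoters of the surrogate light chain genes are shown because Igll1 and Vpreb1 moved together across the lines. Vpreb2 had 10 counts or more in 3 lines only. Each window holds 250 bases before and 50 after the start that the RefSeq table uses (GRCm38.p6), and all 8 genes had one. For Vpreb1 and Vpreb3 the deposited gene span begins further upstream than this start. For Vpreb2 the bases after the start begin with ATG, the letters of a start codon. Distances in that window may therefore count from the coding sequence and not from where transcription begins. The windows were searched on both strands for the core of the EBF1 motif, CCCNNGGG, and for the E-box CAGGTG bound by E2A, written CACCTG on the other strand. Both motifs are named for factors of early B cell development, and they have no base in common in the windows printed. Capitals mark the matches in the windows of Igll1 (chr16:16863936-16864235, minus strand) and Vpreb1 (chr16:16869206-16869505, minus strand).
Igll1: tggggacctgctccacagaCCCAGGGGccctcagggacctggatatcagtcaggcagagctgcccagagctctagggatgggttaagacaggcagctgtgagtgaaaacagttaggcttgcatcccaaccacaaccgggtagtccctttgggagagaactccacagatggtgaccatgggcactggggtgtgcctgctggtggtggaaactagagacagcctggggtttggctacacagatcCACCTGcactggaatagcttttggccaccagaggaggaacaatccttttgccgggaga
Vpreb1: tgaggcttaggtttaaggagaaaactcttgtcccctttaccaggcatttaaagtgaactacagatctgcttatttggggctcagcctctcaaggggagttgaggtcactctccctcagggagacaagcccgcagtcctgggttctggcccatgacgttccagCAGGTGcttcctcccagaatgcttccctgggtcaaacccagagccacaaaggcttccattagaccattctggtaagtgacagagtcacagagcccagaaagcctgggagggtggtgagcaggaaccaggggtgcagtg
The E-box was present once each in the windows of Igll1, Vpreb1, Vpreb2 and Rag1, at -8, -88, -232 and -135 bases from the start, and 20% of 27025 promoters held it. The EBF1 core was present in the window of Igll1 alone, at -231, and 13.4% of promoters held it. Neither string occurred in the windows of Rag2, Dntt, Vpreb3 or Il7r, which says only that these letters are not there. A match describes the sequence and is no evidence of binding.

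The windows of Vpreb1 and Vpreb2 overlap in content, since the last 156 bases of the first match the first 156 bases of the second at 153 positions. In Vpreb2 this shared stretch lies before the start used here, which may not mark where transcription begins. It is printed to show how alike the copies are there, with the bases that differ in capitals (chr16:16869206-16869361, minus strand, for Vpreb1, and chr16:17980315-17980470, plus strand, for Vpreb2).
Vpreb1: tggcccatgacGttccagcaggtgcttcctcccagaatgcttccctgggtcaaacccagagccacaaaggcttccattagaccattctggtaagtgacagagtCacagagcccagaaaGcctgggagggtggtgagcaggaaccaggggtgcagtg
Vpreb2: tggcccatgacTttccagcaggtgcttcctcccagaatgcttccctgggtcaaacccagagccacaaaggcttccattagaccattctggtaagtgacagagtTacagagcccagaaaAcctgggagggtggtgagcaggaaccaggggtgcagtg
Counted from 1 at the 5′ end of the Vpreb1 window, with the base of Vpreb1 first, the differences are G156T, C248T and G263A. The E-box lies inside the stretch, at the same aligned place in both copies. Its distances, -88 in Vpreb1 and -232 in Vpreb2, differ because the starts used are placed differently.

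Vpreb3, a VpreB relative that is made at several stages of B cell life and binds immunoglobulin chains inside the cell, had the smallest spread of the 8 genes over the 12 lines. It had 15.9 CPM in line 524, a median of 115 CPM and 338 CPM in line 504, with no line at the floor and every neighbour in that order apart beyond counting error. Its SD of log2 CPM over the lines, 1.30, was still larger than that of 82.9% of the 15648 genes tested, and those of the other 7 genes, 2.44 to 3.83, were larger than those of 95.6% to 99.6%. Lines 504, 309, 505 and 649 had the highest Vpreb3 levels, at 164 CPM or more, and lines 115, 136 and 524 the lowest, at 42.6 CPM or less. This order differed from that of Vpreb1, where line 309 was among the lowest and line 136 among the middle lines. The gene most like Vpreb3, among those with a mean log2 CPM of at least 2, was Elf1, an ETS transcription factor gene, with r = 0.98 and rho = 0.95, and r = 0.97 without line 524. Vpreb3 lies on chromosome 10 at 75943057 to 75949657 on the plus strand.

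Il7r was transcribed in 11 of the 12 lines. Its level was 0.0359 CPM in line 524, from 1 count, with a median of 35.7 CPM and a highest level of 87.0 CPM in line 504, followed by 75.2 CPM in line 688 and 64.4 CPM in line 801. The second lowest was line 505 with 12.8 CPM, 358 times the level of line 524 (counting interval 63.9 to 14180). Leaving line 524 aside, the highest Il7r level was 6.78 times the lowest, a narrower range than that of Vpreb3, at 10.0 times, and of Rag1, at 38.3 times. Line 688 was near the top for Il7r and near the bottom for Rag1, with 6.85 CPM. Over all 12 lines Il7r had r = 0.82 with Rag1, but r was -0.13 without lines 524 and 505. Il7r lies on chromosome 15 at 9506161 to 9529876 on the minus strand.

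**Figure D3:**
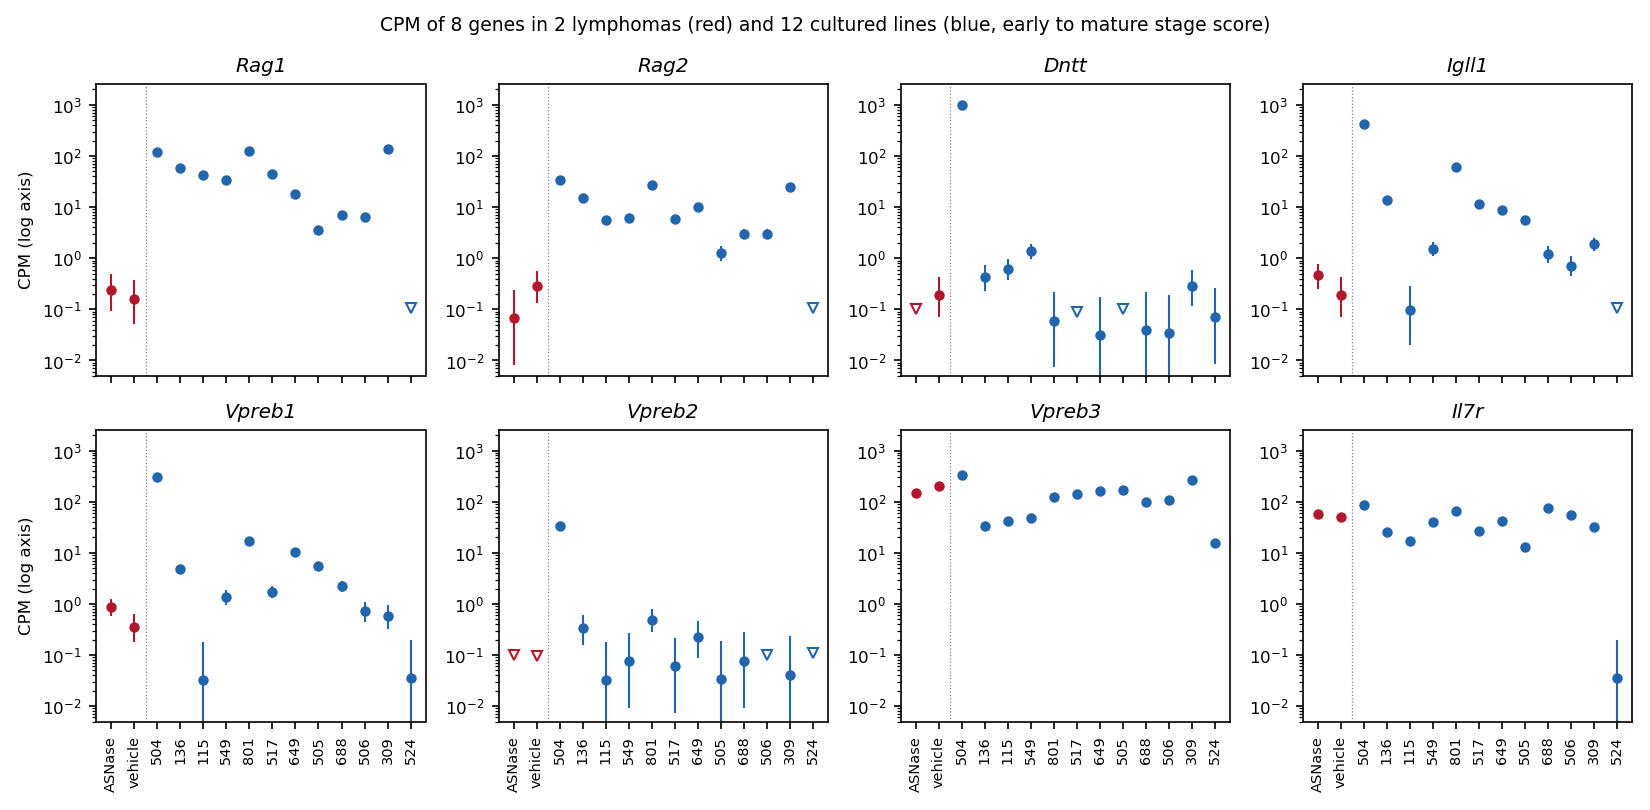
CPM of the 8 genes on a log axis in the 2 lymphomas (red, left of the dotted line) and the 12 cultured lines (blue, early to mature stage score), with 95% Poisson counting intervals; open triangles mark libraries with 0 counts, drawn at the level of 3 counts. Dntt stands out in line 504 alone, all 8 genes are low or at 0 in line 524 except Vpreb3 at 15.9 CPM, and both lymphomas lie near the floor for Rag1 and Rag2 but at 49.8 CPM or more for Vpreb3 and Il7r.

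Within the order from early to mature, Dntt, Igll1, Vpreb1 and Vpreb2 declined with the stage score and the other 4 genes did not pass the test. The slope is in log2 units per unit of score, fitted over all 15648 genes by edgeR's quasi-likelihood test with Benjamini-Hochberg adjustment. It was -10.29 ± 1.59 for Dntt (SE, adjusted p = 0.00267), -6.19 ± 0.87 for Vpreb2 (adjusted p = 0.00206), -4.62 ± 0.95 for Igll1 (adjusted p = 0.0178) and -4.19 ± 0.87 for Vpreb1 (adjusted p = 0.0186). The same test called 3.98% of all genes, 2.63% with a positive and 1.35% with a negative slope. Slopes of the genes that missed the threshold were -1.85 ± 0.67 for Il7r (adjusted p = 0.173), -1.70 ± 0.74 for Rag2 (0.282), -1.59 ± 0.89 for Rag1 (0.449) and -0.66 ± 0.40 for Vpreb3 (0.490). The stage score is itself made from expression in these libraries, so the slopes describe how genes go together rather than a comparison of labelled groups.

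These slopes rested on the lines at the ends. Without line 504, edgeR called 0 of the 8 genes, with 4 of 8 at an unadjusted p under 0.05 and adjusted p = 0.120 for Igll1, and without line 524 it called Dntt and Vpreb2. With both lines left out, it called 0 of the 8, with 2 of 8 at an unadjusted p under 0.05, and 0 of all genes, with 1635 genes at an unadjusted p under 0.05. Without line 309, which combined the second highest stage score with the highest Rag1 level, Rag1 (slope -3.33, adjusted p = 0.0136) and Rag2 (-2.88, adjusted p = 0.00994) joined the called genes. The side of the score mattered as well. With the early list alone Rag1 and Rag2 passed (adjusted p = 0.0183 and 0.0254), and with the mature list alone edgeR called 0 of the 8, with 2 at an unadjusted p under 0.05. DESeq2 called 6 of the 8, adding Rag1, Rag2 and Il7r and losing Dntt (adjusted p = 0.138).

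Each line was then set against the other 11, with every gene of the table tested in each of the 12 fits. Of the 96 pairs of a gene and a line, 4 passed, 3 of them in line 504 and 1 in line 524. That is 4.17% of the pairs, where 0.7% of all pairs of a tested gene and a line were called. In line 504, Dntt (log2 fold change 11.90 ± 1.01, SE, adjusted p = 2.63e-05), Vpreb2 (8.00 ± 1.06, adjusted p = 0.000991) and Vpreb1 (6.20 ± 1.35, adjusted p = 0.0236) were higher than in the other lines. The test called 3.80% of all genes in that line, 2.83% higher. By the same test Igll1 in line 504 missed the threshold, with 425 CPM against a mean of 9.63 ± 17.7 CPM over the other 11 lines (SD) and adjusted p = 0.0931. Rag1 and Rag2 in line 504 lay within the range of the others or just above it, with adjusted p = 0.699 and 0.590. In line 524, Il7r was lower, with 0.0359 CPM against a mean of 43.2 ± 24.2 CPM over the other 11 lines (SD, adjusted p = 0.00553). The test called 3.97% of all genes in line 524, 1.12% lower. Rag1 and Rag2, both without a count there, had adjusted p = 0.109 and 0.0745 by edgeR, while DESeq2 also called Rag1, Rag2 and Vpreb3 lower in line 524 (adjusted p = 1.40e-05, 0.000364 and 0.0181). In the other 10 lines, where edgeR called 0.0633% of all pairs, it called 0 of these 80, with 0 under 0.05 before adjustment, and DESeq2 called 0 of the 40 pairs to which it gave an adjusted p, with 1 of 80 under 0.05 before adjustment. Each line is assumed in these fits to vary as the other lines do.

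**Figure D4:**
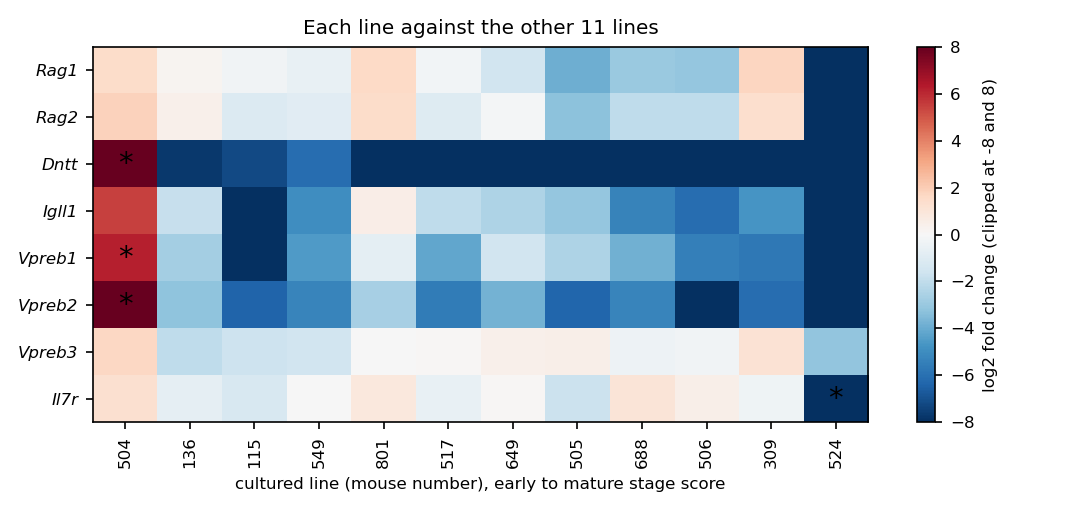
Log2 fold change of each gene in each line against the other 11 lines (colour, clipped at -8 and 8), lines ordered from early to mature stage score; asterisks mark the 4 pairs with an adjusted p under 0.05 (edgeR). Dntt, Vpreb1 and Vpreb2 are marked in line 504 and Il7r in line 524. The blue row of Dntt reflects its level in line 504, which enters the mean of the others. The same level enters the mean for Igll1, Vpreb1 and Vpreb2, so their blue cells reflect line 504 in part.

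The partners of these genes were examined in lists of the recombination and receptor pathways. Of 15 tested genes that repair and join DNA breaks, 0 passed by edgeR in line 504, with 2 at an unadjusted p under 0.05 and 1 called by DESeq2, and 2 passed by edgeR in line 524. There Lig4, the ligase of end joining, was lower (log2 fold change -3.35 ± 0.75, adjusted p = 0.0260), with 4.34 CPM against 21.7 to 79.1 CPM in the other lines, and Prkdc, the DNA-dependent kinase subunit, was higher (1.09 ± 0.25, adjusted p = 0.0290). The median log2 fold change of the list was 0.17 in line 504 and -0.42 in line 524, beside -0.09 and -0.09 over all genes. Of 18 genes of interleukin 7 receptor signalling, 1 was higher in line 504, namely Ccnd3, a D-type cyclin, with 950 CPM against 60.8 to 295 CPM in the other lines (adjusted p = 0.00296). In line 524, 3 were higher and 1 was lower. Il2rg, the common gamma chain that pairs with the Il7r product, was higher with 143 CPM against 16.5 to 37.0 CPM (adjusted p = 0.000309), so the line with 1 count of Il7r had the highest level of its partner chain. Pim1 and Mcl1, survival genes, were higher in line 524 too (adjusted p = 0.00403 and 0.0344), and Socs2, an inhibitor of cytokine signalling, was lower (adjusted p = 0.0406).

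Of 13 genes of pre-B receptor signalling, 1 was lower in line 504 by edgeR. In line 524, 0 passed by edgeR, with 4 at an unadjusted p under 0.05 and 2 called by DESeq2. The lower one was Ighm, the heavy chain that pairs with the surrogate light chain, at 772 CPM in line 504 against 2064 to 3744 CPM in the other lines (log2 fold change -1.85 ± 0.34, adjusted p = 0.00976). Igkc was at 1.21 CPM in line 504 against 672 to 2322 CPM (adjusted p = 0.000250). Line 504 therefore held the highest surrogate light chain levels, a reduced level of heavy chain RNA and 35 counts of conventional light chain. Of 20 transcription regulators, 1 was higher in line 504, Runx1, at 91.4 CPM against 15.5 to 46.2 CPM (adjusted p = 0.0105). Irf4 and Irf8, factors of the light chain stage and of mature B cells, were higher in line 524, with log2 fold changes of 1.83 and 2.95 (adjusted p = 0.0306 and 0.0264). Ebf1, a factor known to activate the surrogate light chain genes, had its highest level of 246 CPM in line 504 and its lowest of 19.3 CPM in line 524, and did not pass in either line (adjusted p = 0.364 and 0.134). Some genes of other cell types also differed in these lines. In line 504 the 8 macrophage genes summed to 64.5 CPM against 2.84 to 31.0 CPM in the other lines. Mrc1 made up 54.6 CPM of this sum and did not pass (adjusted p = 0.165), Lyz2 at 1.48 CPM and Csf1r at 5.04 CPM were higher by edgeR, and C1qa had no count in any line. In line 524 the 14 T cell genes summed to 45.5 CPM against 2.38 to 28.3 CPM in the other lines, of which Lck made up 38.7 CPM without passing (adjusted p = 0.352). Of the 6 T cell genes tested there 1 passed, Thy1, at 2.80 CPM (adjusted p = 0.00156 by edgeR), and Cd3e and Trbc2 had no count. Their part in the levels of the 8 genes was not tested.

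In the lymphomas Rag1 fell, and Rag2 stood near the floor without passing the test, while Vpreb3 and Il7r had levels within the range of the lines. Rag1 had 7 counts (0.234 CPM, interval 0.0940 to 0.482) in the ASNase lymphoma and 5 counts (0.161 CPM, interval 0.0523 to 0.376) in the vehicle lymphoma, against a lowest level of 0, a median of 38.2 and a highest level of 136 CPM in the lines. Both lymphomas lay under 11 of the 12 lines and above line 524. By edgeR's quasi-likelihood test, Rag1 was lower in the lymphomas than in the lines with a log2 fold change of -7.97 ± 2.66 (SE, adjusted p = 0.0441). Of all 17450 genes tested, 24.5% passed, 13.4% higher and 11.1% lower, so 1 of 8 is no larger a share than the background. Rag2 had 2 counts (0.0668 CPM) in the ASNase lymphoma and 9 counts (0.290 CPM) in the vehicle lymphoma, against a median of 6.04 CPM in the lines, and missed the threshold (log2 fold change -6.29 ± 2.24, adjusted p = 0.0563). In bulk tumours, fewer cells that transcribe a gene and less RNA per cell cannot be told apart.

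DESeq2 called both Rag1 and Rag2 lower, whereas the edgeR call for Rag1 was close to its threshold. It was lost without the vehicle lymphoma (adjusted p = 0.204), without the ASNase lymphoma (0.185), and without any of the lines 115, 136, 309, 517, 549, 649 and 801 (0.0509 to 0.0573), whereas the fold change stayed between -8.24 and -7.71. Scaling by total counts moved the median log2 fold change of all genes to 0.21, with adjusted p = 0.0518 for Rag1, and scaling by the pan-B list moved it to -0.32. Without line 524 edgeR called Rag2 as well (adjusted p = 0.0124), and without lines 504 and 524 together also (adjusted p = 0.0103).

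The surrogate light chain genes and Dntt were low in both lymphomas, as they were in many lines, and did not pass. Igll1 had 0.468 CPM in the ASNase lymphoma and 0.193 CPM in the vehicle lymphoma, under 10 of the 12 lines (adjusted p = 0.216). Vpreb1 had 0.869 and 0.354 CPM in the ASNase and the vehicle lymphoma, with 8 of 12 lines above both (adjusted p = 0.288). Vpreb2 had 0 counts in either lymphoma, with interval limits of 0.123 CPM in the ASNase and 0.119 CPM in the vehicle lymphoma. Of the 12 lines, 8 had 3 counts or fewer of Vpreb2 (adjusted p = 0.224 by edgeR). Dntt had 0 counts in the ASNase lymphoma and 6 in the vehicle lymphoma (adjusted p = 0.315). Vpreb3 had 149 CPM in the ASNase lymphoma and 205 CPM in the vehicle lymphoma, against 129 ± 96 CPM in the lines (SD, n = 12, adjusted p = 0.742 by edgeR). Il7r had 57.8 CPM in the ASNase lymphoma and 49.8 CPM in the vehicle lymphoma, against 39.6 ± 26.2 CPM in the lines (SD, n = 12, adjusted p = 0.814 by edgeR).

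Because both lymphomas grew from line 506, their levels were set beside that line, with 1 library each and no test. Line 506 was itself low for the recombinase, with 6.52 CPM of Rag1 and 3.02 CPM of Rag2. Rag1 in the ASNase lymphoma was 0.0359 times that of line 506 (95% counting interval 0.0142 to 0.0754), and in the vehicle lymphoma 0.0247 times (0.00793 to 0.0587). Rag2 was 0.0221 times that of line 506 in the ASNase lymphoma (0.00264 to 0.0823) and 0.0960 times in the vehicle lymphoma (0.0425 to 0.191). A rule of at least 2-fold was applied to genes with 5 CPM or more in either library, and 3 of the 8 genes, Rag1, Vpreb3 and Il7r, had that level. Of these 3, Rag1 was past the rule in each lymphoma. Of all genes with that level the rule took 28.5% in the ASNase lymphoma, 12.0% downwards, and 29.7% in the vehicle lymphoma, 12.2% downwards. Rag2 lay under the 5 CPM floor in all 3 libraries.

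The other genes stayed closer to line 506. Igll1 was 0.656 times that of line 506 in the ASNase lymphoma (0.309 to 1.35) and 0.271 times in the vehicle lymphoma (0.0895 to 0.694). Vpreb1 was 1.22 times that of line 506 in the ASNase lymphoma (0.659 to 2.28) and 0.497 times in the vehicle lymphoma (0.216 to 1.08). Both rested on 6 to 26 counts. Vpreb3 was 1.39 times that of line 506 in the ASNase lymphoma (1.33 to 1.46) and 1.92 times in the vehicle lymphoma (1.84 to 2.00). Il7r was 1.07 times that of line 506 in the ASNase lymphoma (1.00 to 1.15) and 0.926 times in the vehicle lymphoma (0.863 to 0.994). These intervals cover counting error only, and scaling moved them further than that. With total counts the median log2 ratio of all genes shifted to 0.23 in the ASNase and 0.19 in the vehicle lymphoma, and with the pan-B list to -0.37 and -0.74. On the pan-B scale the log2 ratio of Il7r was -0.11 in the ASNase and -0.69 in the vehicle lymphoma.

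**Figure D5:**
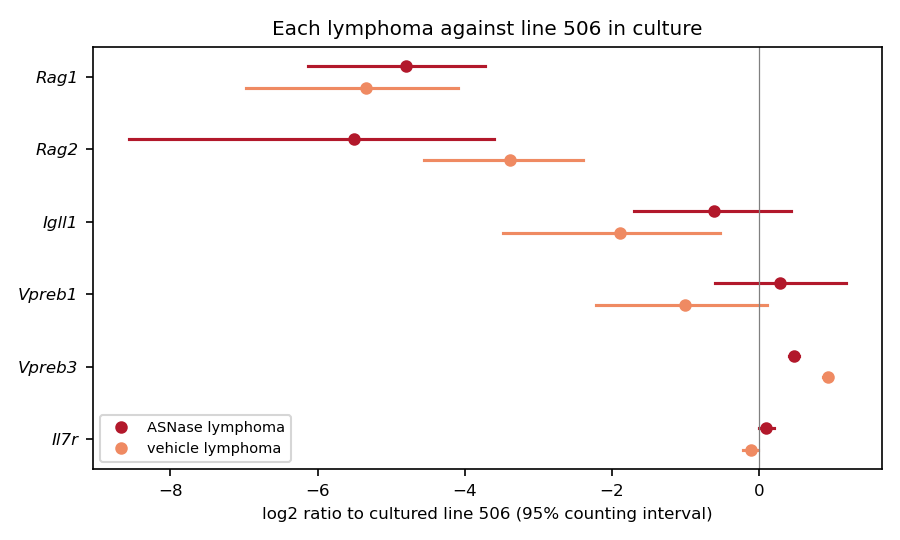
Log2 ratio of 6 genes in the ASNase and the vehicle lymphoma to cultured line 506, 1 library each, with 95% counting intervals. Rag1 and Rag2 lie between -5.50 and -3.38, while Vpreb3 (0.48 and 0.94) and Il7r (0.10 and -0.11) lie near 0.

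Between the ASNase and the vehicle lymphoma, 2 of the 8 genes, Vpreb3 and Il7r, reached 5 CPM in either library and 0 of these were past the 2-fold rule, which took 4.69% of all genes with that level. With 1 library each there was no test. Vpreb3 was 0.726 times as high in the ASNase as in the vehicle lymphoma (0.698 to 0.754), and Il7r 1.16 times (1.08 to 1.24). Vpreb1 was 2.45 times as high (1.17 to 5.50), from 26 counts in the ASNase and 11 in the vehicle lymphoma, and under the 5 CPM floor in both. Rag1 was 1.45 times as high (0.397 to 5.80). The remaining genes had 14 counts or fewer in either library.

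The lymphomas also carried transcripts of other cells. In a list of 14 T cell genes, 10 were higher than in the lines by edgeR, with a summed level of 25.4 CPM in the ASNase and 108 CPM in the vehicle lymphoma, against 2.38 to 45.5 CPM in the lines, where Cd3e and Trbc2 had no count. Of 5 innate lymphoid genes, 3 were higher, with 4.21 and 2.80 CPM in the ASNase and the vehicle lymphoma against 0 to 0.747 CPM in the lines. Among the lines alone, 6 of the T cell and 1 of the innate lymphoid genes passed the filter on low counts, so the others could only come out as higher. T cells and innate lymphoid cells make Il7r as well, and their part in the Il7r level of the lymphomas was not tested. In line 506, where Cd3e and Trbc2 had no count, Il7r stood at 53.8 CPM. Of 8 macrophage and 8 stromal and vessel genes, 5 and 3 passed the same filter among the lines. The others of these lists could only come out as higher. Macrophage genes (7 of 8 higher) summed to 727 and 354 CPM in the ASNase and the vehicle lymphoma against 2.84 to 64.5 CPM in the lines, and stromal and vessel genes (7 of 8 higher) to 2235 and 1030 CPM against 27.3 to 157 CPM. RNA of these cells takes a share of the library, and its part in the Rag1 and Rag2 levels was not tested. On the pan-B scale, which sets the summed level of the 8 pan-B genes equal, edgeR called both Rag1 and Rag2 lower in the lymphomas (adjusted p of Rag2 0.0412). These genes do not separate tumour cells from B cells of the host, whose part in the levels was not tested.

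Partners of the recombinase and of the receptors were tested in the same comparison, in which 24.5% of all genes passed. Of 15 break repair genes, 2 were higher and 3 lower by edgeR with Benjamini-Hochberg adjustment, and the shares called in the lists of interleukin 7 receptor signalling, pre-B receptor signalling and transcription regulators lay under that of all genes. Hmgb1 and Hmgb2, DNA-bending proteins that assist the RAG complex, were lower with log2 fold changes of -0.61 ± 0.19 and -0.64 ± 0.14 (SE, adjusted p = 0.0310 and 0.00562). Hmgb2 had 496 CPM in the ASNase and 556 CPM in the vehicle lymphoma, under every line (698 to 989 CPM). Atm, the kinase that responds to breaks, was lower too (-0.72 ± 0.23, adjusted p = 0.0376). Dclre1c, which encodes the hairpin-opening nuclease Artemis, was higher (0.74 ± 0.23, adjusted p = 0.0309), as was Polm, a polymerase related to Dntt (1.62 ± 0.52, adjusted p = 0.0376), with 134 and 132 CPM in the ASNase and the vehicle lymphoma against 9.18 to 92.1 CPM in the lines. The median log2 fold change of the list was 0.03, beside -0.01 over all genes.

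Of 18 interleukin 7 receptor signalling genes, 2 were higher and 0 lower in the lymphomas by edgeR. Jak3, the kinase bound to the common gamma chain, had 45.2 CPM in the ASNase and 57.8 CPM in the vehicle lymphoma against 8.28 to 38.7 CPM in the lines (adjusted p = 0.0203), and Socs3, a feedback inhibitor, had 5.85 and 12.0 CPM against 0.0774 to 4.00 CPM (adjusted p = 0.0223). Of 20 transcription regulators, 1 was lower, Spi1, which encodes PU.1, with 33.6 and 45.2 CPM in the ASNase and the vehicle lymphoma against 55.4 to 112 CPM in the lines (adjusted p = 0.0106). Neither Ebf1, Tcf3, Foxo1 nor Pax5, known regulators of genes among the 8, passed. Of 13 pre-B receptor signalling genes 0 passed by edgeR, with 1 under 0.05 before adjustment and 0 by DESeq2, and their median log2 fold change was -0.01.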

How the data were processed

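Per the labels' protocols, total RNA of cells or lymphomas went into strand-specific mRNA libraries, which were read as paired ends of 75 bases on an Illumina NextSeq. The deposited table holds whole-number counts per gene, not normalized, and its exon length column was used as deposited by the authors to scale levels per kb. The submitters' processing notes name the build mm10 (GRCm38), STAR 2.4.0, Subread 1.5.0-p3 and featureCounts. Not given in the sources used here are the annotation release, the strand option and how multiply matching reads were counted. The table held 46959 genes, and its 100 spike-in and phage entries entered neither library sizes nor tests. Samples fell into 3 groups, ASNase lymphoma (1), vehicle lymphoma (1) and cultured lines (12), by title and source name.

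Counts were filtered with filterByExpr (minimum count 10), scaled by TMM and tested with edgeR 4.0.16 (glmQLFit, glmQLFTest) in R 4.3.3 over all genes, with Benjamini-Hochberg adjustment and a threshold of 0.05. The filter kept 17450 genes for both lymphomas against the lines, in which the 11 residual degrees of freedom come from the lines, and 15648 genes for the fits among lines. Nothing says that lines were cultured in replicate, so p-values measure the spread between these tumours' libraries. In the lymphoma comparison the 2 lymphomas of 1 origin enter as if independent. SE is the log2 fold change over the root of the F statistic. For log2 CPM a prior count of 2 was added. Where each side was 1 library, sizes were compared (2-fold, 5 CPM) with exact 95% binomial intervals, and levels have exact Poisson intervals. The fits were tested on simulated counts with known changes. Alternatives were DESeq2 1.42.0, other scalings (DESeq2 size factors, total counts, pan-B genes), no filter, the mature or the early list alone as stage score, and leaving out libraries; leaving out lines 504 and 524 together was chosen after seeing the data.

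The 8 genes and the 13 lists (138 genes, 137 found) were chosen with earlier results of these data known. Named genes are the 8 genes, the 3 of smallest p per list and comparison, the 3 most like each of the 8 by Pearson's r (1 of them is not reported here), and marker genes of other cells; Atm, Polm, Socs2, Ebf1, Tcf3, Foxo1, Pax5 and the light chain genes were named after their values were seen. Promoters came from RefSeq tables (GRCm38.p6), which held 27025 windows of 300 bases, and were aligned with Biopython 1.88. Plots used matplotlib 3.10.9 in Python 3.11.15.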

Additional observations from a re-analysis of the deposited data

How the results depend on the processing

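Of the 8 genes, edgeR called 1 (Rag1) for both lymphomas against the lines. The number was 0 with total counts and with no filter, and 2 (Rag1 and Rag2) with pan-B scaling, with DESeq2 and without lines 504 and 524. It was 0 to 2 over leaving out each library, while the genes called of all tested, 4270, ranged from 1816 to 4881. For the stage slope, 4 of the 8 and 623 genes were called. DESeq2 called 972 genes, the mature list alone gave 0 of the 8, and without lines 504 and 524 the count was 0 of the 8 and 0 of all genes (edgeR, with 2 and 1635 at an unadjusted p under 0.05). Over leaving out each line it was 0 to 6 of the 8, and 142 to 1099 genes. The slope of Vpreb3 turned to 0.094 with the mature list alone (adjusted p = 0.973) and to 1.39 without lines 504 and 524 (0.315), and that of Il7r to 0.21 without these lines (0.928); the cause was not tested. For each line against the others, the 4 calls held under every scaling and with no filter; DESeq2 gave no adjusted p for Vpreb1 in line 504 and called 3273 genes over the 12 fits, against 1315 by edgeR. Beside line 506, the genes past 2-fold, 1 in each lymphoma, became 2 in the vehicle lymphoma with total counts, 2 and 2 with a floor of 1 CPM, and 0 and 0 with a floor of 20 CPM, under which fewer genes qualify. No paired analysis was possible because the labels number no replicates and the groups compared share 1 origin only, line 506, with 1 library in each. Depth limits the genes near 3 counts, chiefly Dntt and Vpreb2 outside line 504 and Rag1 and Rag2 in the lymphomas.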

Other observations

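Likeness of levels across the 12 lines was ranked among genes with a mean log2 CPM of at least 2, which leaves out genes near 0 in most lines. Within that limit, the genes most like Igll1 were Csad (r = 0.92, rho = 0.85), Pold1 (r = 0.91, rho = 0.97) and Mmp11 (r = 0.91, rho = 0.86). Without line 504 they still had r = 0.87, 0.91 and 0.85. Those most like Vpreb1 were Csad (r = 0.93), Brd8 (0.87) and Ankrd49 (0.86). For Dntt the leading genes were Kdm5c (r = 0.94), Mettl10 (0.92) and Egfl7 (0.91), with r = 0.60, 0.60 and 0.37 without line 504. For Vpreb2 they were Iws1 (r = 0.93), Rdh10 (0.93) and Oaz2 (0.91), with r = 0.62, 0.44 and 0.61 without line 504. For Il7r they were 9430020K01Rik (r = 0.96), Tifa (0.96) and Myb (0.96), with r = 0.61, 0.61 and 0.77 without line 524. After Elf1, Mpdu1 (r = 0.94) and Ipmk (0.92) were most like Vpreb3.

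Among the 12 early B stage genes, Kit and Cd34 had no count in any line and entered the test through the lymphomas, which fixed their direction. Kit had 1.47 CPM in the ASNase lymphoma and 3.83 CPM in the vehicle lymphoma, and Cd34 had 10.0 and 16.7 CPM. Macrophage and stromal genes were higher in the same libraries, and their part in these levels was not tested. The other 10 early genes did not pass by edgeR. Of 14 mature genes 0 passed by edgeR, with 1 at an unadjusted p under 0.05, and 0 of the 6 with an adjusted p by DESeq2. They summed to 802 CPM in the ASNase and 1275 CPM in the vehicle lymphoma, against 664 CPM in line 506 and 379 to 1869 CPM over the lines. Beside line 506 single genes went both ways. Ms4a1 had 27.3 and 91.3 CPM in the ASNase and the vehicle lymphoma against 0.747 CPM, and Ccr7 had 30.6 and 57.7 CPM against 149 CPM. Of 8 pan-B genes 0 passed by edgeR, with 2 at an unadjusted p under 0.05 and 1 called by DESeq2. Of 5 immunoglobulin constant genes 0 passed by edgeR, with 0 at an unadjusted p under 0.05, while 0 of the 4 with an adjusted p passed by DESeq2. Of 4 plasma cell genes 1 was higher by edgeR, Jchain, which encodes the joining chain of secreted antibodies. Jchain had 0.835 CPM in the ASNase and 5.99 CPM in the vehicle lymphoma, against 0 to 0.108 CPM in the lines. It did not pass the filter on low counts among the lines alone, so its direction was fixed too.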
